A study of Mus musculus with 108 samples.

Results

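Cerebral cortex (CX) and hippocampus (HIP) were compared in the same wild-type (WT) mice at P35, the adult period of the study. The members were the WT libraries of both regions at that age whose mouse carried the same genotype in every source, 5 CX and 5 HIP libraries of 5 mice, 10 of the 108 libraries of the series. The mice were Mus musculus of the strain given in the labels as C56Bl/6N, carried no Cul3 mutation, and had no treatment or sex named in their labels. The remaining libraries of the series come from cerebellum, from a late embryonic stage and P7, and from heterozygous Cul3+/- mice, which carry a germline frameshift insertion in exon 6 of Cul3. Mice P35_22 and P35_23, whose genotype differs between the labels and the study's own sample table, were left out. Every contrast below is within mouse, HIP over CX, so that a positive log2 fold change is a higher level in HIP.

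Cortex and hippocampus share an origin in the dorsal telencephalon and the same broad cell classes: glutamatergic projection neurons, GABAergic interneurons, astrocytes, oligodendrocytes, microglia and vessels. They differ in how the projection neurons are arranged. The neocortex stacks them in layers with distinct targets, from callosal neurons of the upper layers to corticothalamic neurons of layer 6, whereas the hippocampus joins the granule cells of the dentate gyrus, the pyramidal cells of CA3, CA2 and CA1 and the mossy cells of the hilus in a loop used in memory, and adds new granule cells in adult life. A bulk library mixes all these cells, and in such data fewer cells of a type and less RNA per cell cannot be told apart.

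The 10 libraries held 27477500 to 44411300 counts, and mitochondrial transcripts took 4.93% to 6.10% of the counts in CX and 5.67% to 6.68% in HIP. Levels are given as CPM, counts scaled to a common normalized library size, in the order of mice P35_11, P35_15, P35_17, P35_26 and P35_31. The HIP libraries of mice P35_17 and P35_26 stood apart by their choroid plexus transcripts (below), so all counts were also taken over the other 3 mice and are given where they changed by more than 1.5 times.

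The regions differed at most genes measured. Of 17506 genes tested by edgeR's quasi-likelihood test with mouse as a block, 10109 (57.7%) differed at a Benjamini-Hochberg adjusted p of 0.1. HIP was higher at 5104 of them (29.2% of the genes tested) and CX at 5005 (28.6%). These shares are the background for each count of list genes below. The typical difference was small, with a median size of 0.41 on the log2 scale among the genes called. At least 2-fold differences were fewer and leaned toward CX, with 808 genes higher in HIP (4.62%) and 1180 higher in CX (6.74%). Without mice P35_17 and P35_26 these 2-fold counts were 843 and 1083. The targeted gene of the series, Cul3 (the cullin scaffold of an E3 ubiquitin ligase), was at 164 ± 13.5 CPM in CX and 174 ± 11.2 CPM in HIP (SD, n = 5), a difference that was not called (log2 fold change 0.09 ± 0.05 (SE), adjusted p = 0.21, edgeR) but was called without mouse P35_26 (0.14, adjusted p = 0.04).

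**Figure D1:**
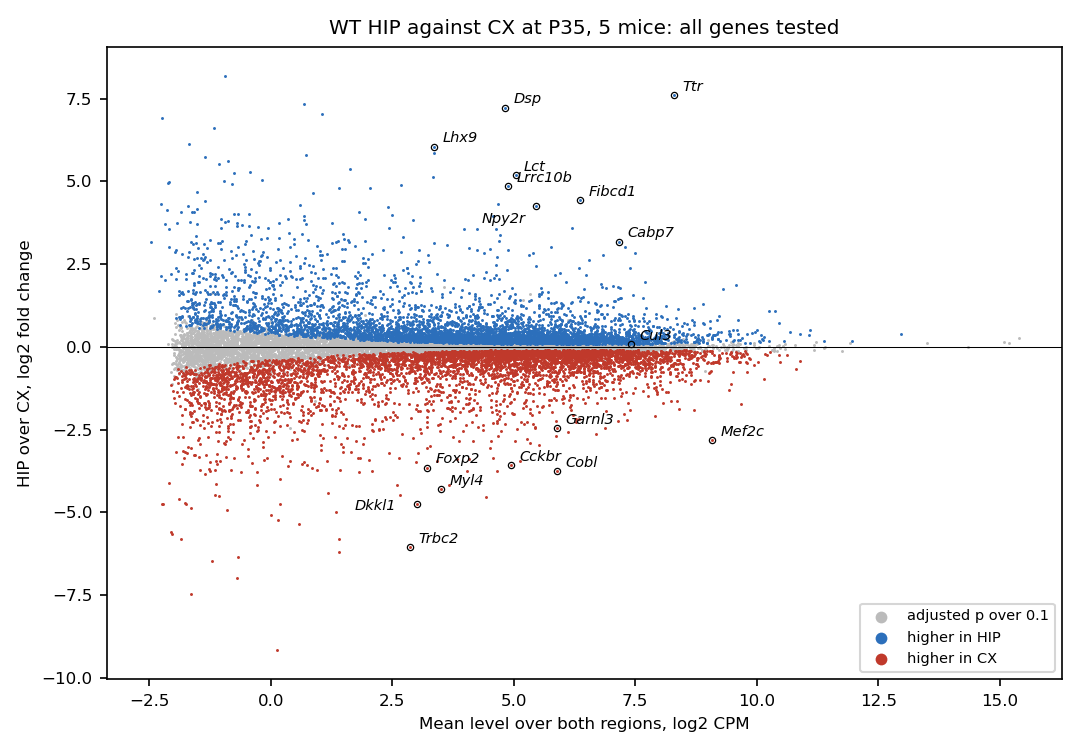
Every gene tested in WT mice at P35, with its mean level over both regions (log2 CPM, x axis) against its HIP over CX log2 fold change (y axis). Blue genes were higher in HIP, red genes were higher in CX and grey genes were not called at an adjusted p of 0.1; the points for Dsp at 7.24, Trbc2 at -6.04 and Mef2c at -2.82 lie far outside the grey band, and Cul3 at 0.09 lies within it.

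Genes of the cortical layers were mostly higher in CX, most often those of layers 4 and 6. All 6 layer 4 genes tested were higher in CX, beside 28.6% of all genes, and 5 of them at least 2-fold, with a list median of -1.27 on the log2 scale beside 0.01 over all genes tested. Of 10 layer 6 genes, 8 were higher in CX and 1 in HIP (median -1.70). Layer 2/3 gave 6 of 8 higher in CX (median -0.97) and layer 6b 3 of 5 (median -2.14), whereas layer 5 was split, with 5 of 9 higher in CX and 3 in HIP (median -0.31). These counts were the same without mice P35_17 and P35_26.

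Foxp2, a forkhead factor of corticothalamic neurons, stood at 19.5, 18.9, 16.8, 14.9 and 15.6 CPM in CX. In HIP it stood at 0.698, 1.34, 1.47, 2.12 and 1.27 CPM. All CX libraries lay above all HIP libraries, and CX was 12.5-fold higher (log2 fold change -3.64 ± 0.21 (SE), adjusted p = 3.4e-07). Lamp5, a membrane protein found in layer 2/3, was at 95.7, 118, 91.8, 107 and 96.1 CPM in CX and at 14.4, 15.5, 15.8, 16.8 and 15.7 CPM in HIP, again without overlap (log2 fold change -2.69 ± 0.06 (SE), adjusted p = 8.4e-10). Among the other layer genes, the layer 6b genes Cplx3 (a complexin) and Ccn2 (connective tissue growth factor) differed by -3.48 and -3.37, the layer 2/3 factor Cux2 by -2.57, the layer 4 potassium channel Kcnh5 by -2.78 and the layer 5 factor Tshz2 by -2.25. Rorb, the nuclear receptor of layer 4, differed less, from 68.7 CPM in CX to 29.4 CPM in HIP (-1.22 ± 0.06). Fezf2, which specifies layer 5 neurons of subcerebral tracts, overlapped between regions (19.9 to 26.9 CPM in CX against 13.7 to 20.5 CPM in HIP) but was lower in HIP in each mouse (log2 fold change -0.55 ± 0.09 (SE), adjusted p = 8.4e-04).

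Several genes used to mark cortical layers were higher in HIP instead. Crym, the thyroid hormone-binding crystallin mu listed for layer 5, was at 62.5 ± 7.07 CPM in CX and 219 ± 25.2 CPM in HIP (log2 fold change 1.81 ± 0.04 (SE), adjusted p = 1.2e-09). Bcl11b (Ctip2), the zinc finger factor of layer 5 subcerebral neurons that hippocampal neurons also use, was at 59.9 CPM in CX and 146 CPM in HIP (1.29 ± 0.07), the adhesion molecule Mdga1 of layer 2/3 at 14.1 and 48.7 CPM (1.79 ± 0.08), and the heparan sulfate sulfotransferase Hs3st4 of layer 6 at 51.7 and 83.5 CPM (0.69 ± 0.06).

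Most genes listed for the dentate gyrus and CA2 were higher in HIP, and those listed for CA1 were divided. Of 12 dentate granule cell genes, 10 were higher in HIP, beside 29.2% of all genes, 6 of them at least 2-fold, and 2 were higher in CX (median 1.92). The CA2 list gave 7 of 8 higher in HIP (median 1.23), the CA3 list 6 of 10 (median 1.23, 4 higher in CX) and the hilar mossy cell list 3 of 5 (median 1.02, 2 higher in CX, 1 without mice P35_17 and P35_26). The CA1 list had a median of 0.01, equal to that of all genes tested. Of its 8 genes, 3 were higher in HIP and 2 in CX, beside 29.2% and 28.6% of all genes. Those higher in CX were Mpped1 and Ccn3. In the CA3 list they were Coch (-2.09 without mice P35_17 and P35_26), Col6a1, Spock1 and Dkk3.

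Dsp encodes desmoplakin, a desmosome protein that in brain marks dentate granule cells (chr13:38151294-38198577, plus strand, GRCm38). Its CX levels were 0.220, 0.587, 0.417, 0.306 and 0.270 CPM and its HIP levels 55.2, 52.9, 58.8, 54.9 and 58.1 CPM. The regions did not overlap, and HIP was 151-fold higher (log2 fold change 7.24 ± 0.14 (SE), adjusted p = 4.6e-10). Prox1, the homeobox factor that sets granule cell identity, was at 12.5, 11.8, 12.7, 11.8 and 10.8 CPM in CX and 101, 98.8, 105, 84.2 and 97.2 CPM in HIP (log2 fold change 3.03 ± 0.06 (SE), adjusted p = 3.8e-10). The other large dentate differences were those of Lct (lactase, 5.20 ± 0.10), Tdo2 (tryptophan dioxygenase, 4.91 ± 0.11), Il16 (interleukin 16, 4.31 ± 0.06) and C1ql2 (a synaptic C1q-like protein, 3.96 ± 0.09). Calb1, the calcium buffer calbindin, is abundant in granule cells and also in upper cortical layers, and it differed by only 0.19 ± 0.05.

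In CA3, Iyd (iodotyrosine deiodinase) was at 0.220, 0.141, 0.0556, 0.136 and 0.162 CPM in CX and at 6.09, 5.96, 6.96, 4.56 and 6.58 CPM in HIP (log2 fold change 5.37 ± 0.21 (SE), adjusted p = 2.9e-08), and the scaffold Homer3 was at 4.62 CPM in CX and 48.2 CPM in HIP (3.39 ± 0.07). In CA1, Fibcd1, a receptor for acetylated groups, was at 6.79, 7.74, 6.57, 7.07 and 7.73 CPM in CX and at 164, 122, 183, 142 and 178 CPM in HIP (log2 fold change 4.44 ± 0.10 (SE), adjusted p = 1.2e-09). Both genes were higher in every HIP library than in any CX library. The Nodal antagonist Lefty1 (4.80 ± 0.13) and the receptor Gpr161 (2.17 ± 0.09) were the other CA1 genes higher in HIP. Wfs1 and Itpka, which also label CA1 cells, differed by -0.01 and 0.03 and were not called. CA2 genes such as Rgs14, a brake on synaptic plasticity, and Amigo2, an adhesion molecule, were higher in HIP by 1.47 ± 0.05 and 2.02 ± 0.06. Calb2 (calretinin), found in mossy cells and in interneurons, was at 9.27 CPM in CX and 39.1 CPM in HIP (2.07 ± 0.08).

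**Figure D2:**
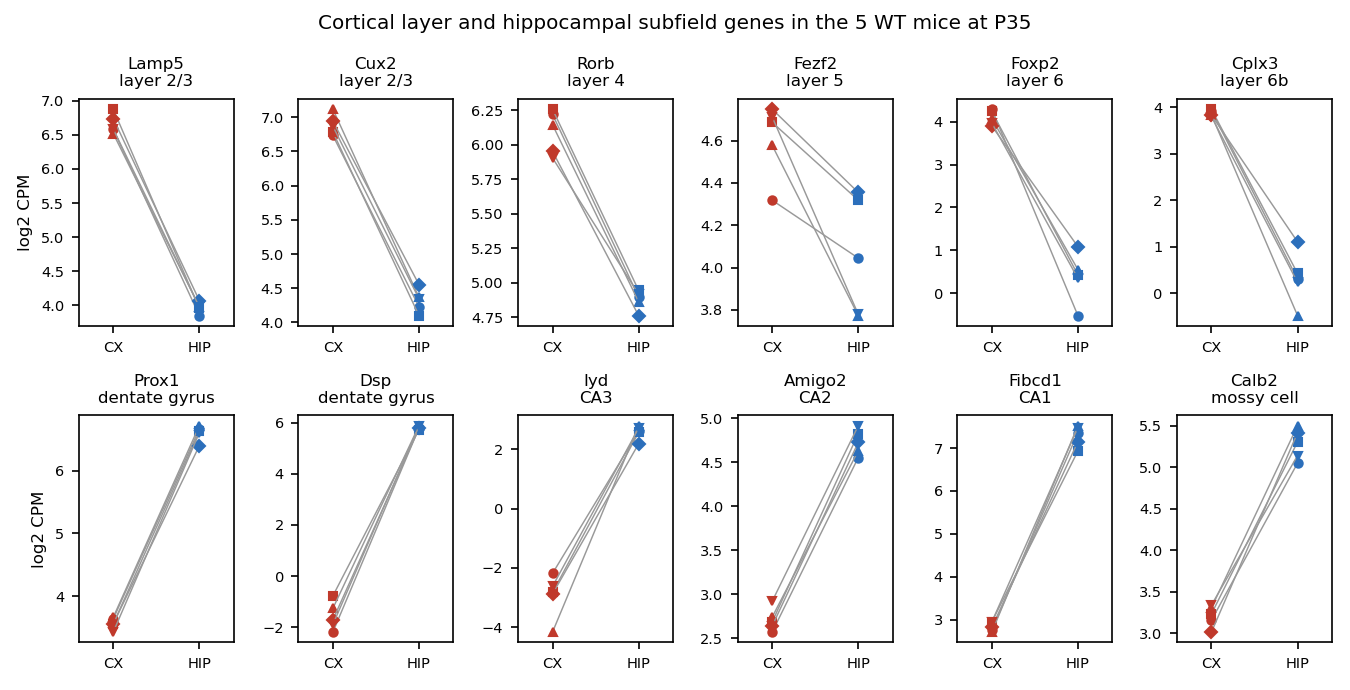
Levels (log2 CPM, y axis, separate scale in each panel) of 6 cortical and 6 hippocampal genes in CX (red) and HIP (blue) of the 5 WT mice, with the libraries of a mouse joined by a line (circle P35_11, square P35_15, upward triangle P35_17, diamond P35_26, downward triangle P35_31). The lines run down in the upper row and up in the lower row in all 5 mice, and the regions overlap only for Fezf2. The genes are chosen examples, and several of their lists also hold genes of the opposite direction, such as 4 of 10 in CA3.

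Genes of newborn neurons and dividing progenitors gave 5 of 10 higher in HIP and 1 higher in CX, 2 without mice P35_17 and P35_26 or without P35_17 alone (median 0.46). Eomes (Tbr2), the T-box factor of intermediate progenitors, was at 0.275, 0.352, 0.306, 0.0680 and 0.0540 CPM in CX and at 1.21, 1.20, 1.87, 2.66 and 0.731 CPM in HIP (log2 fold change 2.76 ± 0.38 (SE), adjusted p = 2.0e-04), low in both but without overlap. Igfbpl1, expressed in newborn granule cells, was at 0.787 CPM in CX and 4.69 CPM in HIP (2.58 ± 0.17), the granule cell differentiation factor Neurod1 at 9.94 and 23.6 CPM (1.25 ± 0.06) and Sox11 by 0.69 ± 0.04. Dcx (doublecortin), in contrast, was higher in CX, at 25.9 against 14.8 CPM (-0.80 ± 0.05). The proliferation genes Mki67, Top2a and Cdk1 differed by 0.22, 0.23 and 0.17 and were not called, except Top2a without mouse P35_15 (0.38, adjusted p = 0.058).

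Transcription factors of the forebrain were called in both directions. Of 32, 11 were higher in HIP, beside 29.2% of all genes, and 17 higher in CX, beside 28.6% (median -0.40). Mef2c, an activity-regulated MADS-box factor, was at 1002, 1004, 907, 969 and 866 CPM in CX and 140.1, 143, 138, 131 and 121 CPM in HIP (log2 fold change -2.82 ± 0.05 (SE), adjusted p = 3.8e-10). Tshz3, Tbr1 and Pou3f2 (Brn2), a homeobox gene of upper layers, were lower in HIP, by log2 values of -2.70, -1.97 and -1.68 on the log2 scale. Toward HIP, the zinc finger factor Zbtb20, required for CA1 identity, was at 54.2 ± 4.96 CPM in CX and 282 ± 35.6 CPM in HIP (log2 fold change 2.37 ± 0.08 (SE), adjusted p = 9.9e-09), and Neurod6, Neurod2, Nr2f2 and Emx2 were higher in HIP by 1.21, 0.90, 1.49 and 0.75. Paired relatives went opposite ways: Emx1 was lower in HIP, at -0.92, where Emx2 was higher, and Nr2f1 at -0.47, where Nr2f2 was higher. Lhx2 (0.10), a LIM homeobox factor that defines the pallium, was not called.

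The 12 genes with the largest differences toward HIP, among genes of at least 5 CPM in the higher region, were Ttr, Dsp, Lhx9, Slc9a4, Iyd, Lct, Spink8, Tdo2, Lrrc10b, Lefty1, Folr1 and Fibcd1. Lhx9, a LIM homeobox factor, was at 0.304 CPM in CX and 20.1 CPM in HIP (log2 fold change 6.05 ± 0.24 (SE), adjusted p = 2.7e-08). Slc9a4, a sodium-hydrogen exchanger, was at 0.347 CPM in CX and 20.005 CPM in HIP (5.85 ± 0.15), and the protease inhibitor Spink8 at 0.555 and 19.6 CPM (5.13 ± 0.14). Ttr and Folr1 are choroid plexus genes whose levels were set by mice P35_17 and P35_26 (below). The smallest p-values toward HIP belonged to Lrrc10b, Cabp7 (a calcium-binding protein), the neuropeptide Y receptor Npy2r, Il16 and Cpne7 (copine 7), each with an SE of at most 0.0642. Lrrc10b, a leucine-rich repeat protein (chr19:10455371-10457473, minus strand, GRCm38), was at 1.95, 1.78, 2.23, 1.67 and 2.08 CPM in CX and 60.1, 54.2, 57.0, 54.5 and 58.5 CPM in HIP (log2 fold change 4.87 ± 0.06 (SE), adjusted p = 6.6e-11).

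Toward CX the 12 largest included Trbc2, Dkkl1, Igfn1, Myl4, Tnnc1, Rasgef1c, Ovol2, Atp6ap1l, Cobl, Sowahb and Foxp2. Trbc2, which encodes a constant segment of the T cell receptor beta chain (chr6:41546730-41548352, plus strand, GRCm38), was at 15.8, 17.2, 13.8, 11.2 and 13.7 CPM in CX and at 0.215, 0.145, 0.0936, 0.391 and 0.191 CPM in HIP, 65.7-fold higher in CX (log2 fold change -6.04 ± 0.22 (SE), adjusted p = 1.5e-08). It has a near-identical neighbour, Trbc1, so how the reads were divided between the copies is uncertain. Among these genes were the atrial myosin light chain Myl4 (21.7 against 1.10 CPM, -4.29 ± 0.09) and the cardiac troponin Tnnc1 (11.5 against 0.623 CPM, -4.17 ± 0.12), both best known from muscle. Cobl (cordon-bleu), an actin nucleator that shapes dendrites, was at 110.2 ± 7.53 CPM in CX and 8.45 ± 3.08 CPM in HIP (-3.75 ± 0.14). By p-value, Fhod3 (a formin that assembles actin filaments), Mef2c, the cholecystokinin receptor Cckbr, Bmp3 and Garnl3 led. Cckbr was at 50.5, 58.4, 56.3, 57.3 and 59.4 CPM in CX and at 4.40, 4.54, 4.96, 5.56 and 4.23 CPM in HIP (log2 fold change -3.57 ± 0.07 (SE), adjusted p = 5.5e-10).

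Genes of GABAergic interneurons were called in both directions, more of them higher in CX. Of 26 genes, 14 were higher in CX, beside 28.6% of all genes, and 6 in HIP, beside 29.2% (median -0.22). Of the 26, 4 were at least 2-fold higher in CX and 2 in HIP, beside 6.74% and 4.62% of all genes tested. The GABA-synthesizing enzymes Gad1 and Gad2 differed by 0.09 (not called, but 0.13, adjusted p = 0.086 without mouse P35_26) and 0.30, and Lhx6, the factor of interneurons from the medial ganglionic eminence, by 0.09 (not called). The subtype genes were unequal. Vip, a peptide of disinhibitory interneurons, was at 47.3, 46.8, 36.9, 50.6 and 43.7 CPM in CX and at 11.4, 16.7, 10.8, 14.4 and 12.8 CPM in HIP (log2 fold change -1.78 ± 0.07 (SE), adjusted p = 3.6e-08). Pvalb (parvalbumin) and Npy were lower in HIP, by log2 values of -0.73 and -0.84, and Sst (somatostatin) by -0.29 with overlapping libraries. Nos1 (neuronal nitric oxide synthase), Ndnf and Adarb2 were higher in HIP by 0.98, 1.10 and 0.87.

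Peptides and neurotrophic factors leaned toward CX, with 15 of 24 higher there and 7 higher in HIP (median -0.52). Crh (corticotropin-releasing hormone) and Adcyap1 (PACAP) differed by -1.91 ± 0.19 and -1.89 ± 0.10, and the activity-regulated pentraxin Nptx2 by -1.25 ± 0.18. Ntf3 (neurotrophin-3) went the other way, at 0.907, 0.962, 1.53, 0.782 and 1.35 CPM in CX and at 6.82, 5.96, 7.15, 5.17 and 6.42 CPM in HIP (log2 fold change 2.52 ± 0.13 (SE), adjusted p = 1.6e-07). Bdnf differed by 0.35 ± 0.18 and was not called over the 5 mice (adjusted p = 0.13), whereas leaving out mouse P35_26, whose CX library was the highest at 67.2 CPM, gave 0.61, adjusted p = 3.3e-04 (edgeR). Of 6 vesicular transporter genes, 2 were higher in HIP and 4 in CX (median -0.27). The glutamate transporters Slc17a7 (VGLUT1) and Slc17a6 (VGLUT2) were lower in HIP, by log2 values of -0.26 and -1.47, and the monoamine transporter Slc18a2 was higher, at 0.165 CPM in CX and 2.41 CPM in HIP (3.86 ± 0.25).

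Ionotropic receptors shifted by subunit. AMPA receptors, which carry fast glutamate transmission, showed Gria1 (GluA1) at 287, 308, 292, 268 and 289.7 CPM in CX and at 1032, 957, 1024, 879.9 and 1019.9 CPM in HIP (log2 fold change 1.76 ± 0.05 (SE), adjusted p = 4.8e-09). Gria2 was higher in HIP by 0.44 ± 0.06, whereas Gria3 and Gria4 were lower, by log2 values of -0.71 and -1.005, so the 4 AMPA subunits divided into a pair in each direction. Among NMDA receptors, Grin2a was higher in HIP by 0.47 and Grin1 was lower, by a log2 value of -0.33. Among kainate receptors, Grik4, which sits at mossy fibre synapses of CA3, was higher in HIP by 1.41 ± 0.05 and Grik3 was lower, by log2 values of -1.59 ± 0.06. The metabotropic receptors Grm8, Grm4 and Grm3 were lower in HIP, by log2 values of -2.37, -1.66 and -1.17, and Grm5 was higher by 0.54. The glutamate receptor list as a whole had 8 of 24 genes higher in HIP, beside 29.2% of all genes, and 15 higher in CX, beside 28.6% (median -0.22).

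GABA-A receptor genes had 4 of 13 higher in HIP, near the 29.2% of all genes, and 7 higher in CX, beside 28.6% (median -0.17). Gabra5, the alpha subunit of tonic inhibition in CA1, was at 54.8, 51.0, 45.9, 46.7 and 49.5 CPM in CX and 179, 177, 193, 142 and 188 CPM in HIP (log2 fold change 1.82 ± 0.07 (SE), adjusted p = 1.5e-08). Gabra2 was higher in HIP by 1.18 ± 0.06, while Gabra3 was lower in HIP, by a log2 value of -1.55. Gabrd, the delta subunit found outside synapses, was at 57.5 ± 5.25 CPM in CX and 19.0 ± 1.35 CPM in HIP (-1.59 ± 0.06). Among beta subunits Gabrb1 was higher in HIP by 0.44 and Gabrb2 was lower, by log2 values of -0.54. The regions did not overlap for Gabra2, Gabra3, Gabra5 and Gabrd.

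Receptors for neuromodulators held some of the largest differences in either direction. Of 43 genes, 18 were higher in HIP, beside 29.2% of all genes, and 23 higher in CX, beside 28.6% (median -0.30). Npy2r, the presynaptic receptor for neuropeptide Y, was at 4.23, 4.04, 4.17, 3.98 and 5.46 CPM in CX and at 81.6, 84.0, 82.6, 67.5 and 98.9 CPM in HIP (log2 fold change 4.25 ± 0.06 (SE), adjusted p = 6.6e-11). Adra1b, an alpha-1 adrenergic receptor, went the other way, at 15.4, 20.7, 21.4, 20.8 and 19.2 CPM in CX and 1.66, 1.74, 2.00, 2.10 and 1.46 CPM in HIP (log2 fold change -3.43 ± 0.09 (SE), adjusted p = 1.8e-09). Dopamine receptors divided by subtype: Drd5 was at 2.40 CPM in CX and 16.3 CPM in HIP (2.77 ± 0.11) and Drd1 was lower, at 12.4 against 3.68 CPM (-1.75 ± 0.10). Serotonin receptors did the same, with Htr4 (3.07 ± 0.11), Htr5b (1.94 ± 0.17) and Htr1a (0.56 ± 0.06) higher in HIP and Htr2a (-1.36 ± 0.07) and Htr5a (-1.11 ± 0.06) higher in CX. The muscarinic receptors Chrm1 and Chrm5 were higher in HIP by 0.27 and 3.84 and Chrm2, Chrm3 and Chrm4 lower, by log2 values of -1.31, -0.50 and -1.47. The corticotropin-releasing hormone receptor Crhr1 was lower in HIP, by log2 values of -1.83 ± 0.07, as its ligand gene Crh was.

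Potassium and HCN channels, which set the firing of neurons, were mostly higher in CX. Of 54 genes, 37 were higher in CX, 15 at least 2-fold, and 10 were higher in HIP (median -0.34). Kcnh5, a channel of the ether-a-go-go family, was at 62.9, 71.6, 77.2, 68.1 and 56.8 CPM in CX and 9.07, 11.1, 8.65, 10.6 and 9.31 CPM in HIP (log2 fold change -2.78 ± 0.08 (SE), adjusted p = 3.2e-09). Other members of that family followed, with Kcnh4, Kcnh7, Kcnh3 and Kcnh1 lower in HIP, by log2 values of -2.93, -1.68, -1.24 and -1.08. Kcna2, a Shaker-type channel of axons, was at 334 ± 12.9 CPM in CX and 184 ± 7.68 CPM in HIP (-0.86 ± 0.05). Toward HIP, Kcng2, a modifier subunit that forms no channel alone, was at 2.32 CPM in CX and 14.1 CPM in HIP (2.61 ± 0.11), and the A-type partners Kcnip2 and Kcnd2 were higher by 1.11 ± 0.06 and 0.41 ± 0.05. The relatives of Kcnip2 and Kcnd2 were divided. Without mice P35_17 and P35_26, Kcnip1, Kcnip3, Kcnip4 and Kcnd1 differed by -0.27, -0.99, -0.44 and -0.37, and Kcnd3 by 0.28. The HCN channels Hcn2, Hcn3 and Hcn4 were lower in HIP, by log2 values of -0.32, -0.41 and -1.03.

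Axon guidance genes differed in both directions, with 23 of 47 higher in HIP (29.2% of all genes) and 18 higher in CX (28.6%) and a median of 0.14. Sema3a, a secreted repellent, was at 45.7, 50.2, 35.3, 46.2 and 38.6 CPM in CX and at 4.35, 4.11, 3.09, 5.53 and 3.88 CPM in HIP (log2 fold change -3.37 ± 0.08 (SE), adjusted p = 1.2e-09). Its receptor Nrp1 was the reverse, at 44.7 ± 4.56 CPM in CX and 126 ± 5.599 CPM in HIP (1.499 ± 0.07), as was Nrp2 (1.61 ± 0.06), the receptor of Sema3f, which was itself lower in HIP (-2.22 ± 0.21). The ephrin Efna5 was lower in HIP (-3.05 ± 0.10), while the ephrin receptors Epha6, Epha7 and Epha4 were higher by 1.76, 1.45 and 0.78. Slit1, a ligand of Robo receptors, was higher in HIP by 1.89 ± 0.06, with Robo1 higher by 0.68 and Robo2 lower, by log2 values of -0.36.

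Immediate early genes, which neurons transcribe within minutes of activity, were higher in CX almost throughout. Of 20 genes, 15 were higher in CX, 13 at least 2-fold, 2 were higher in HIP and 3 were not called (median -1.35). The mean of log2(CPM + 0.5) over the list was 5.32, 5.48, 6.26, 6.04 and 5.60 in CX and 4.56, 4.63, 4.75, 4.86 and 4.35 in HIP, so that the lowest CX library lay above the highest HIP library, and the CX libraries of mice P35_17 and P35_26 were the highest. The spread between mice was wider in CX. Without mice P35_17 and P35_26, 15 genes were higher in CX and 12 at least 2-fold.

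Fos, a subunit of the AP-1 factor, was at 54.7, 57.9, 117, 72.4 and 59.4 CPM in CX. Its HIP levels were 9.85, 14.3, 16.4, 19.7 and 8.13 CPM. The regions did not overlap, although CX libraries differed among themselves, with mouse P35_17 the highest (log2 fold change -2.41 ± 0.14 (SE), adjusted p = 4.4e-07). Npas4, a factor induced selectively by neuronal activity, was at 47.4, 39.0, 61.6, 34.2 and 43.8 CPM in CX and 8.26, 9.01, 6.05, 9.64 and 5.72 CPM in HIP (log2 fold change -2.53 ± 0.18 (SE), adjusted p = 1.9e-06). Arc, a regulator of synaptic AMPA receptors, was at 244, 269, 514, 495 and 297 CPM in CX and 119, 141, 131, 162 and 106 CPM in HIP (log2 fold change -1.41 ± 0.13 (SE), adjusted p = 1.2e-05). Egr2, Egr1, Fosb, Dusp1 and Nr4a1 differed by -2.73, -2.17, -1.92, -1.90 and -1.54. The exceptions were Jun (0.85 ± 0.08) and the nuclear receptor Nr4a3 (1.04 ± 0.15), higher in HIP, with Nr4a3 at 19.3, 23.9, 41.0, 36.0 and 22.3 CPM in CX and 60.4, 50.4, 67.4, 47.9 and 58.6 CPM in HIP and no overlap.

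Activity-dependent transcription of these genes is known to run in part through CREB, which binds the palindrome TGACGTCA or its half-site TGACG. The 250 bases before the start of transcription are shown for 4 list genes with a single RefSeq start, as examples of the 15 list genes higher in CX. They are chr19:4989972-4990221 on the minus strand for Npas4, chr12:85473640-85473889 on the plus strand for Fos, chr7:19310046-19310295 on the minus strand for Fosb and chr17:26508473-26508722 on the minus strand for Dusp1 (GRCm38.p6, 5′ to 3′ on the gene's strand), with half-sites on either strand in capitals.
Npas4: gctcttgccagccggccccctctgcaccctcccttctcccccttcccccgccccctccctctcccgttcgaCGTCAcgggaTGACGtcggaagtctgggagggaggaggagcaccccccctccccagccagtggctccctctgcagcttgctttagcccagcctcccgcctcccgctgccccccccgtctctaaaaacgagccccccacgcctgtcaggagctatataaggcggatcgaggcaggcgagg
Fos: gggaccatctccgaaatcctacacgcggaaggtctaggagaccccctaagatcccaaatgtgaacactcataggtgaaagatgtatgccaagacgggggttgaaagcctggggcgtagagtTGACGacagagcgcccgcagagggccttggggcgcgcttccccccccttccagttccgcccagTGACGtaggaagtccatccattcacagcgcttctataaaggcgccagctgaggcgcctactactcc
Fosb: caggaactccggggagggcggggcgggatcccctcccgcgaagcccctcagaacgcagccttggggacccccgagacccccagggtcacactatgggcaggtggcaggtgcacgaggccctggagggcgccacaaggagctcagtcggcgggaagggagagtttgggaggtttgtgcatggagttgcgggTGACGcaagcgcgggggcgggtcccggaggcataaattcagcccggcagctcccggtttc
Dusp1: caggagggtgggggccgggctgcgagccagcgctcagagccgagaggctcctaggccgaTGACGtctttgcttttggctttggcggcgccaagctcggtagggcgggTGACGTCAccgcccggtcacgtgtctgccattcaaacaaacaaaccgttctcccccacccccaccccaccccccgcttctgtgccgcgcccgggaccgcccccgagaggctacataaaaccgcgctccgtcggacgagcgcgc
The half-site occurs 2 times in the Npas4 window, 2 times in Fos, 1 time in Fosb and 3 times in Dusp1, where a full palindrome holds 2 of them, 1 on each strand. Over the 16 list genes with RefSeq windows, 13 hold at least 1 half-site, against 19.8% of 27025 genes, and 2 hold the palindrome, against 1.77% of all. Another motif was also searched, the CArG box, a run of A or T between CC and GG. Within these windows of 250 bases it is held by 1 of the 16, Egr2, against 1.62% of all. Sequence further upstream was not searched. Among list genes higher in CX, 10 of 11 hold the half-site, and among the other list genes 3 of 5, Nr4a3 among them and Jun not. Genes with several starts have several windows, so that a match is easier for them, and a match describes the letters and not binding.

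Corticosteroid receptors differed in opposite directions. Nr3c2, the high-affinity mineralocorticoid receptor, was at 43.5, 44.8, 44.8, 43.3 and 41.1 CPM in CX and at 361, 335, 359, 243 and 281 CPM in HIP (log2 fold change 2.85 ± 0.08 (SE), adjusted p = 3.2e-09), and mouse P35_26 was the lowest of the HIP libraries. Nr3c1, the glucocorticoid receptor, was lower in HIP (-0.34 ± 0.05). Of the 10 genes on the corticosteroid list, 5 were higher in HIP and 5 in CX (median -0.03). Fkbp5, the receptor's co-chaperone, and Hsd11b1, which regenerates active corticosterone, were higher in HIP by 1.31 ± 0.08 and 0.95 ± 0.06, whereas Cdkn1a (p21) and Per1 were lower, by log2 values of -2.11 ± 0.13 and -0.79 ± 0.10.

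Glial and vascular genes differed little. No gene of the oligodendrocyte, oligodendrocyte precursor, microglia, endothelial or mural cell lists reached a 2-fold difference. The differences of microglial genes ranged from 0.01 to 0.15 on the log2 scale, with 3 of 12 higher in HIP, beside 29.2% of all genes. Those of endothelial genes ranged from -0.20 to 0.13, with 2 of 12 higher in CX, beside 28.6% (0 without mouse P35_17, 1 without P35_11 or P35_31). Astrocyte genes gave 7 of 14 higher in HIP and 3 higher in CX (median 0.10). Gfap, the intermediate filament of astrocytes, was at 105, 99.9, 119.9, 98.8 and 107 CPM in CX and at 271, 293, 321, 319 and 279 CPM in HIP (log2 fold change 1.48 ± 0.06 (SE), adjusted p = 2.1e-08). The water channel Aqp4 was higher in HIP by 0.86 ± 0.05, while the glutamate transporter Slc1a2 (0.00) and glutamine synthetase Glul (-0.02) were not called, and Aldh1l1 was lower in HIP (-0.42 ± 0.04).

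Oligodendrocyte genes were higher in HIP, with 9 of 14 called and a median of 0.34, but within the WT mice these calls rested on a pair of mice. Mbp (myelin basic protein) was at 848, 968, 984, 829.9 and 1000.1 CPM in CX and at 912, 1193, 1304, 1749 and 997 CPM in HIP (log2 fold change 0.37 ± 0.13 (SE), adjusted p = 0.037), with the highest HIP levels in mice P35_17 and P35_26. The mean of log2(CPM + 0.5) over the list was 6.53, 6.61, 6.63, 6.25 and 6.60 in CX and 6.52, 6.77, 7.11, 7.22 and 6.60 in HIP. Without mice P35_17 and P35_26 the median was 0.08 and 1 of 14 genes was called (Mobp, 0.19). The oligodendrocyte precursor list went from 4 called to 0, the mural cell list from 4 to 1 and the microglia list from 3 to 1, in a fit that held 3 mice. Leaving out mouse P35_17 or mouse P35_26 alone gave 2 precursor and 2 mural genes, and the microglia list gave 1 to 5 genes when each mouse was left out. In the adult Cul3+/- mice, which are other animals, the oligodendrocyte median was 0.47, and all 9 genes called in WT had the same direction. The precursor median there was 0.28, beside 0.21 in WT.

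The same pair of HIP libraries held choroid plexus transcripts. Choroid plexus is the secretory epithelium of the ventricles, which adjoins the hippocampus. Its defining gene Ttr (transthyretin) was at 0.357, 2.21, 1.141, 2.75 and 1.19 CPM in CX and at 1.69, 30.3, 1808, 1282 and 8.77 CPM in HIP. The HIP libraries of mice P35_17 and P35_26 were far above those of the other 3 mice, the lowest of which lay within the range of CX. The 5-mouse difference of 7.61 ± 1.11 (adjusted p = 2.8e-04) became 3.25 (adjusted p = 1.2e-05, edgeR) over those 3. Of 10 choroid plexus genes tested, 9 were higher in HIP over 5 mice and 6 over 3, with medians of 3.66 and 1.57. Those kept over 3 mice included Folr1 (2.43), Cldn2 (3.14) and Kl (2.96). Aqp1, at 2.79 ± 0.90 over 5 mice, turned to -0.25 and was not called, as it was not without either of the pair alone (1.68, adjusted p = 0.15 without P35_17, 1.86, adjusted p = 0.18 without P35_26). Its call was also lost by the likelihood ratio test (1.78, adjusted p = 0.13) and by DESeq2 (1.73, adjusted p = 0.19). Kcnj13, not called over 5 mice, was called toward HIP without the mouse block (1.99, adjusted p = 0.096, edgeR) and over 3 mice turned to -2.30 (adjusted p = 0.0053). The list genes Otx2, Kcne2 and Slc4a5 did not pass the filter on low counts and reached at most 2, 2 and 3 counts in a CX library and 150, 343 and 371 in a HIP library.

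Ependymal genes, those of the ciliated cells that line the ventricles, were higher in HIP for all 7 genes (median 2.59), and remained so over the other 3 mice (median 2.04, 7 called). Foxj1, the master factor of motile cilia, was at 3.05, 3.87, 3.67, 3.10 and 2.84 CPM in CX and at 7.35, 7.27, 12.05, 14.5 and 9.31 CPM in HIP (log2 fold change 1.56 ± 0.16 (SE), adjusted p = 2.4e-05). The list level was 0.25 to 0.55 in CX and 1.66 to 2.45 in HIP, with mice P35_26 and P35_17 highest in HIP. The part of ventricle-lining tissue in the other differences was not tested beyond leaving out these mice.

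**Figure D3:**
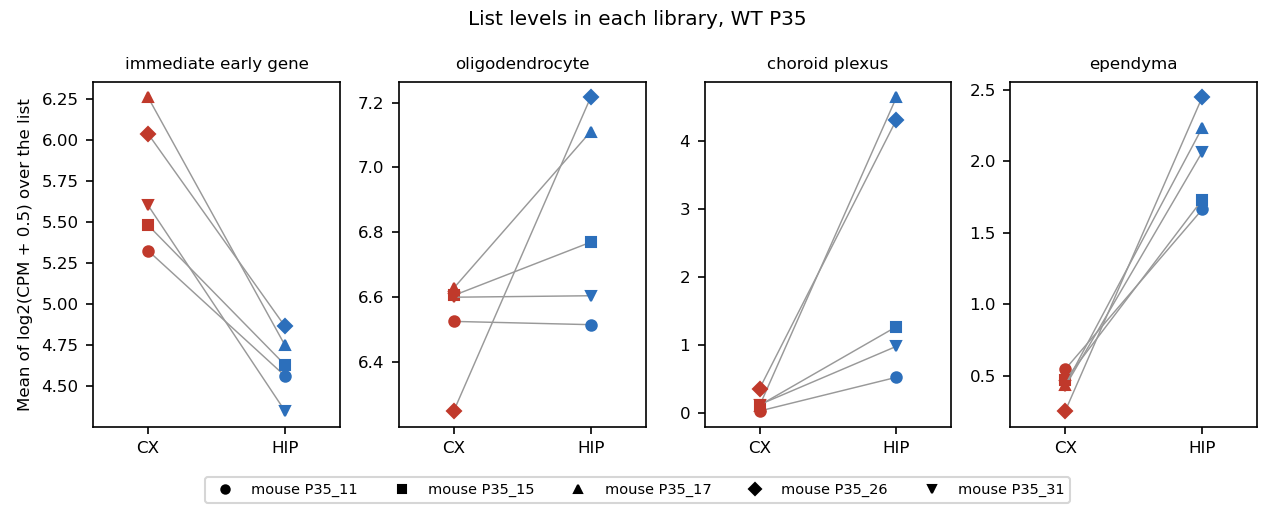
Mean of log2(CPM + 0.5) over 4 gene lists (y axis, separate scale in each panel) in CX (red) and HIP (blue) libraries of each WT mouse, joined by a line. The choroid plexus level of the HIP libraries of mice P35_17 and P35_26 was 4.64 and 4.31 against at most 1.27 in the other HIP libraries, and the same libraries were highest for oligodendrocyte genes.

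Markers of adjoining tissue were also examined. Striatal genes gave 6 of 12 higher in CX and 5 in HIP, beside 28.6% and 29.2% of all genes (median -0.27). The list levels were 2.90 to 3.11 in CX and 2.42 to 2.69 in HIP. Isl1 and Six3, which mark striatal neurons, reached at most 8 and 5 counts in any library and were not tested. Thalamus and habenula genes gave 4 of 9 higher in CX and 3 in HIP, beside the same shares of all genes. Gbx2 and Shox2, which mark thalamic neurons, reached at most 1 and 6 counts. Meningeal genes gave 6 of 10 higher in CX and 1 higher in HIP, the proteoglycan Lum (lumican) at 1.46 ± 0.13 (levels 2.86 to 3.47 in CX and 2.78 to 3.52 in HIP), and blood genes 4 of 5, by at most 0.37 on the log2 scale (levels 4.68 to 5.16 and 4.32 to 5.10). Of the cerebellum list 4 genes were tested, 2 higher in HIP and 1 in CX (0 and 1 without mice P35_17 and P35_26, and 0 or 1 higher in HIP when any mouse was left out), and Gabra6 and Pcp2, which mark cerebellar granule and Purkinje cells, reached at most 2 and 4 counts. The part of these tissues in the differences was not tested.

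**Figure D4:**
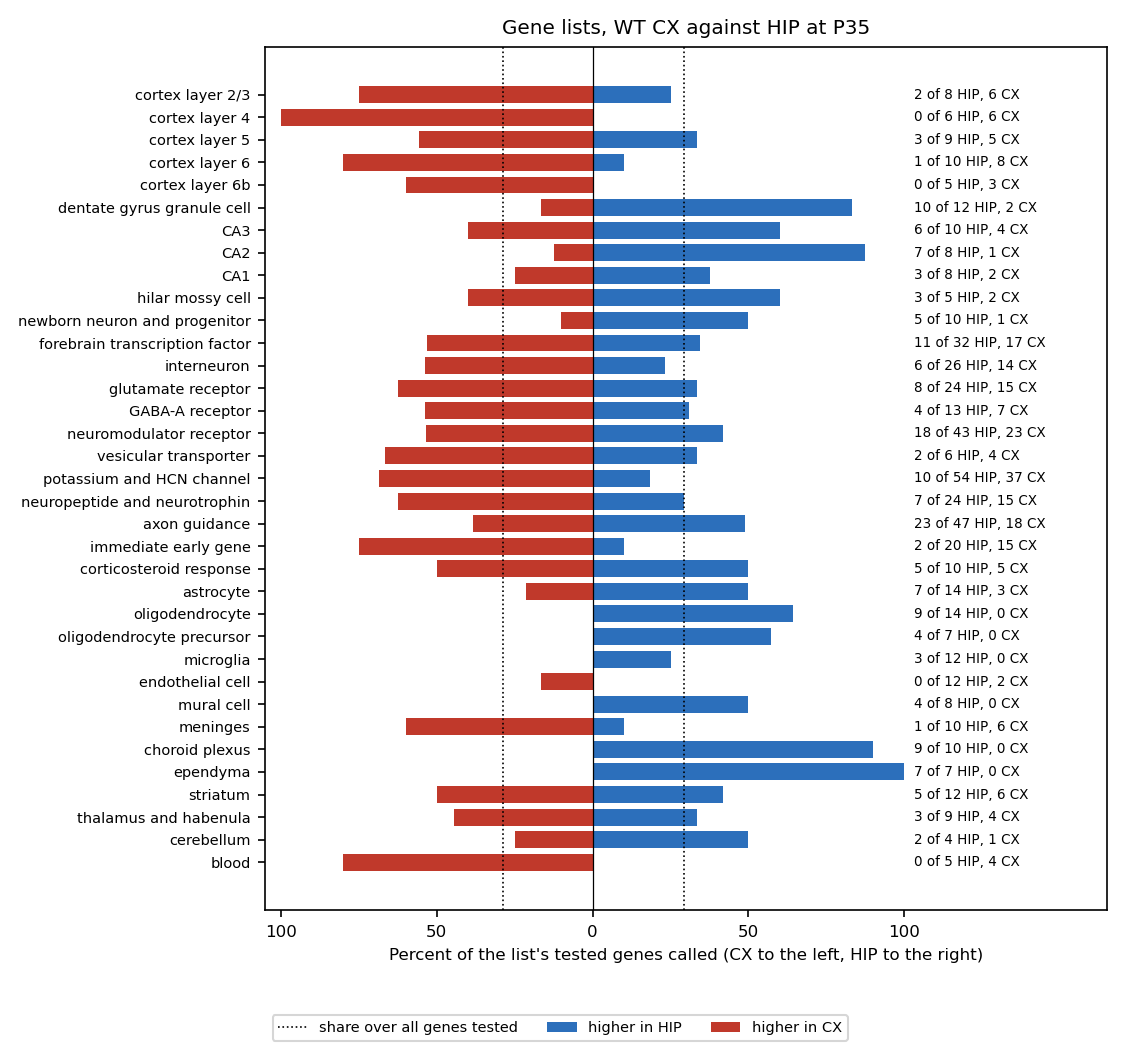
Share of the tested genes of each list that were called higher in HIP (blue, to the right) or in CX (red, to the left), in percent on the x axis, with the counts at the right edge. Dotted lines mark the shares over all genes tested, 29.2% for HIP and 28.6% for CX; immediate early and potassium channel genes pass the line on the CX side and fall short of it on the HIP side.

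To see whether these differences hold in other animals, the contrast was made in the 5 adult Cul3+/- mice. Of 17446 genes, 10626 were called (60.9%), 5336 higher in HIP and 5290 higher in CX. Of the 10003 genes called in WT and tested in both genotypes, 9926 (99.2%) had the same direction in the mutants, and 8913 (89.1% of the WT calls and 84.5% of the mutant calls) were called there too. The 4 genes called in both with opposite directions, named here after their values were seen, were Arl5b, Glp2r, Gm22154 and Spdl1, with sizes of 0.22 to 0.69 on the log2 scale in WT. Across 17234 genes the log2 fold changes of the genotypes had a Pearson r of 0.957, given as a description because genes are not independent replicates. The list medians in the mutants were -1.41 for immediate early genes, 1.79 for dentate granule cells and -1.37 for layer 4, beside -1.35, 1.92 and -1.27 in WT. The list medians that differed most between the genotypes were those of choroid plexus (2.10 in the mutants, 3.66 in WT), layer 6b (-2.90 and -2.14), ependyma (2.24 and 2.59) and thalamus and habenula (-0.34 and -0.04).

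The genotypes were then compared in 1 model. None of 18302 genes was called for the interaction of genotype and region by edgeR's quasi-likelihood test (0%). At an unadjusted p under 0.05 there were 383 genes, a smaller share than the 0.05 that chance alone would give. The likelihood ratio test called 1 gene (Gm49388, log2 value 6.21, adjusted p = 0.094) and DESeq2 called 1 (Gm6565, adjusted p = 5.9e-07). The DESeq2 estimate for Gm6565, a gene model, was extreme, at -31.8 on the log2 scale, and is not read as a measured size. The smallest p was that of Adamts1, a secreted metalloprotease, whose HIP over CX difference was -0.35 ± 0.07 on the log2 scale in Cul3+/- relative to WT (unadjusted p = 2.8e-04, adjusted p = 1, edgeR). Smaller interactions may have been missed with 5 mice of each genotype.

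The contrast at P35 was set beside the one in 6 WT mice at P7, in a model that held both ages. Of 18867 genes, 5814 (30.8%) had a HIP over CX difference that itself differed between the ages, 2406 shifting toward HIP by P35 and 3408 toward CX. The share toward HIP depended on the scaling and on single mice: it was 41.4% here, 46.7% with DESeq2 size factors, 48.5% with no low-count filter and 46.3% to 49.3% when each P35 mouse was left out, highest without P35_15. The difference was the larger at P35 for 3349 of these and at P7 for 2465. Of 7676 genes called at both ages, 6942 kept their direction. For 734 genes the direction was opposite and the interaction was called, 282 of them higher in HIP at P35 and 452 higher in CX. The ages come from different mice, so age, litter and processing cannot be told apart.

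Most immediate early genes shifted toward CX between P7 and P35. Their median HIP over CX difference was 0.13 at P7 against -1.34 at P35 in the same model, and 17 of 20 shifted toward CX and 1 (Nr4a2) toward HIP, beside 30.8% of all genes shifting either way. Fos lay at 4.14 to 6.90 (median 5.93) CPM in CX and 5.22 to 8.46 (median 7.28) CPM in HIP at P7. At P35 it lay at 57.9 to 123 (median 62.9) CPM in CX and 8.68 to 21.0 (median 15.2) CPM in HIP. It thus overlapped between regions at P7 only, and its difference changed by -2.70 ± 0.20 (adjusted p = 2.8e-07, edgeR). Neuropeptide and neurotrophin genes shifted in the same direction, from a median of 0.14 to -0.51 (14 of 24 toward CX), as did layer 4 genes, from -0.16 to -1.26 (4 of 6). The dentate granule cell list widened from 1.23 to 1.93, with 6 of 12 genes shifting toward HIP. Endothelial genes moved from 0.28 to -0.04 (9 of 12) and astrocyte genes from 0.62 to 0.11 (7 of 14).

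Other differences were already present at P7. Prox1 differed by 3.28 at P7 and 3.04 at P35, and its change of -0.24 ± 0.16 was not called (adjusted p = 0.31, edgeR). Nr3c2 differed by 2.77 at P7 and 2.86 at P35, with a change of 0.08 ± 0.11 (adjusted p = 0.64). The astrocyte genes Gfap and Aqp4 changed by 0.02 ± 0.08 and -0.03 ± 0.06 (adjusted p = 0.87 and 0.73). Some receptor subunits changed with age. Gabra5 differed by 0.56 at P7 and 1.83 at P35 (change 1.27 ± 0.08), and Gria1 by 1.29 at P7 and 1.78 at P35 (change 0.48 ± 0.06). Pvalb differed by 1.01 at P7 and -0.72 at P35 (change -1.74 ± 0.24).

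The 6 genes with the largest shifts toward HIP were Trpa1, Dsp, Glp2r, Col8a1, Tdo2 and Mc4r. Trpa1, an irritant-gated cation channel, was at 10.1 to 13.7 (median 10.8) CPM in CX and 0.340 to 0.586 (median 0.490) CPM in HIP at P7. By P35 its level was 0.171 to 0.378 (median 0.205) CPM in CX and 0.232 to 0.657 (median 0.417) CPM in HIP, so that CX at P7 was above all other groups (-4.61 at P7 and 0.84 at P35, change 5.45 ± 0.34, adjusted p = 5.1e-08, edgeR). Mc4r, the melanocortin receptor, reversed, from -1.37 at P7 to 1.98 at P35. Dsp widened from 2.72 to 7.25 as it rose in HIP, from a mean of 14.2 to 59.5 CPM, and fell in CX, from 2.15 to 0.379 CPM. Glp2r, the receptor of glucagon-like peptide 2, was higher in CX at P7 only (-3.34 at P7 and 0.37 at P35, the latter not called in this model). Col8a1, a collagen, differed by -3.94 at P7 and -0.39 at P35, where its level was 5.08, 4.29, 5.23, 3.81 and 3.404 CPM in CX and 0.751, 1.38, 12.3, 9.20 and 0.858 CPM in HIP. The HIP libraries of mice P35_17 and P35_26 were above all CX libraries for this gene, and those of the other 3 mice were below them all.

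Toward CX the 6 largest shifts were those of Igfn1, Serpinb8, Dkkl1, Tnnc1, Myl4 and Hkdc1. Igfn1, Tnnc1 and Myl4, an immunoglobulin-like protein and components of the muscle contractile machinery, differed by -0.15, -0.26 and -0.82 at P7 and by -4.53, -4.17 and -4.29 at P35. Igfn1 at P35 was at 0.134, 0.0727, 1.28, 1.23 and 0.159 CPM in HIP, highest in mice P35_17 and P35_26, and its difference over the P35 mice alone went from -4.47 to -6.56 without that pair (adjusted p = 7.8e-08, edgeR). Myl4 lay at 1.87 to 2.72 (median 2.27) CPM in CX at P7 and at 18.6 to 28.3 (median 23.7) CPM at P35, and at 1.10 to 1.55 (median 1.29) and 0.954 to 1.47 (median 1.08) CPM in HIP at the same ages (change -3.47 ± 0.14, adjusted p = 1.6e-09, edgeR). Serpinb8, a protease inhibitor, reversed from 2.31 to -1.87, and Hkdc1, a hexokinase, from 0.79 to -2.52.

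**Figure D5:**
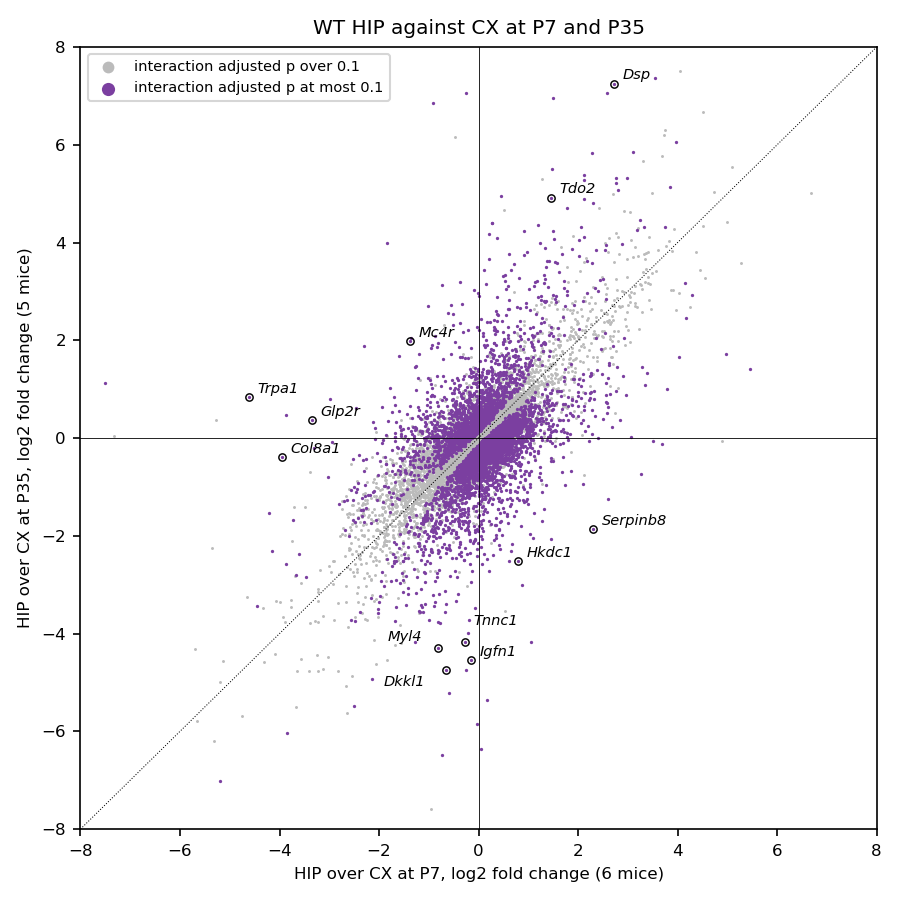
HIP over CX log2 fold change of each gene in WT mice at P7 (x axis, 6 mice) against P35 (y axis, 5 mice), with genes whose difference changed between the ages in purple and the 12 largest shifts named. The dotted line marks equal differences; Trpa1 lies at -4.61 on the x axis and 0.84 on the y axis, Igfn1 at -0.15 and -4.53, and 4 genes lie outside the range drawn.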

How the data were processed

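The 108 ribodepleted total RNA libraries of the series include 10 from WT CX and HIP at P35. The authors trimmed reads with Cutadapt, aligned them with STAR 2.5.3a to mouse build GRCm38.p5 and deposited expected counts per Ensembl gene from RSEM 1.3, without normalization, for 53465 gene IDs. Expected counts were rounded to whole numbers here. Symbols and positions came from a GENCODE annotation of the same build, which may not be the version the authors used, and promoter sequences came from RefSeq (GRCm38.p6). The libraries held 27477500 to 44411300 counts, so that counting error matters only for low genes.

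Genes passing edgeR's filter (minimum count 10, minimum total 15) were fitted in edgeR 4.0.16 (R 4.3.3) with TMM scaling and a quasi-likelihood test, region and mouse as terms. Calls were made where the Benjamini-Hochberg adjusted p was at most 0.1, and at 2-fold where its log2 fold change was also at least 1 in size. Adjusted p-values without a named tool are from this test, and SE is the log2 fold change over the square root of F. The same fit was made in 5 Cul3+/- mice at P35, and interactions with genotype and with age (P7, 6 mice) were fitted over both groups. Libraries were grouped by the labels. CX and HIP libraries of 1 mouse were paired by the mouse name, since both come from the same animal, and their deviations from the group means correlated at 0.0898 to 0.148, against a median of -0.0137 for other pairs. Replicate libraries differed by more than sampling noise (chi-square per gene 8.62 to 34.9 over 20 pairs). Mice P35_22 and P35_23 were left out because sources differ on their genotype.

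The genes named are members of 35 gene lists (477 distinct genes tested), in each direction the 12 with the largest differences (called, the same side in all 5 mice, at least 5 CPM, no gene models) and the 5 with the smallest p, Cul3, and the 6 largest shifts with age. Some genes that meet this rule are not reported here. The groups and lists were chosen with earlier results of these data known. The alternatives were no mouse block, DESeq2 size factors, upper-quartile scaling, all genes with a count in place of the filter, DESeq2 1.42.0, a likelihood ratio test in edgeR, glmTreat, mouse P35_23 added, cerebellum libraries in the fit and each mouse left out. The tests were checked on simulated data.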

Additional observations from a re-analysis of the deposited data

Results flagged for a closer look

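In 24 of 445 groups of 5 libraries, 1 library lay far from the other 4 (Dixon's test at 95%), a share of 5.39% where chance gives about 1 in 20 groups. Mouse P35_26 was that library in 11 groups, P35_17 and P35_11 in 5 each, P35_31 in 2 and P35_15 in 1. Mouse P35_26 stood apart for Bdnf in CX (67.2 CPM in P35_26, nearest 39.5), Bmp3 in CX (36.0 CPM in P35_26, nearest 41.0), Ccn2 in HIP (4.95 CPM in P35_26, nearest 2.76), Chrm2 in HIP (13.8 CPM in P35_26, nearest 10.2), Fosb in HIP (6.29 CPM in P35_26, nearest 3.33), Gabra2 in HIP (245 CPM in P35_26, nearest 298) and Gpr161 in CX (25.3 CPM in P35_26, nearest 20.6). Mouse P35_17 stood apart for Dusp1 in CX (64.6 CPM in P35_17, nearest 37.0), Fos in CX (117 CPM in P35_17, nearest 72.4), Jun in CX (61.9 CPM in P35_17, nearest 43.1) and Slc9a4 in CX (0.139 CPM in P35_17, nearest 0.357), of which Fos, Jun and Dusp1 are immediate early genes and were all highest in this CX library. The other mice stood apart for Cobl in CX (97.0 CPM in P35_11, nearest 112), Grik4 in CX (18.0 CPM in P35_11, nearest 19.0), Kcnh3 in CX (112 CPM in P35_11, nearest 136), Mdga1 in CX (12.2 CPM in P35_11, nearest 14.2), Epha7 in CX (81.9 CPM in P35_15, nearest 74.8), Npy2r in CX (5.46 CPM in P35_31, nearest 4.23) and Spdl1 in HIP (0.763 CPM in P35_31, nearest 0.563). For the mean of log2(CPM + 0.5) over a list, 1 library stood apart for dentate gyrus granule cell genes in HIP (5.09 in P35_26, nearest 5.29), GABA-A receptor genes in HIP (6.16 in P35_26, nearest 6.31), neuromodulator receptor genes in CX (3.35 in P35_11, nearest 3.46), oligodendrocyte genes in CX (6.25 in P35_26, nearest 6.53), choroid plexus genes in CX (0.36 in P35_26, nearest 0.12) and cerebellum genes in CX (1.74 in P35_17, nearest 1.55).

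The HIP over CX difference itself differed between P7 and P35 for 5814 genes (edgeR, interaction term). The largest changes toward CX on the log2 scale were Igfn1 (-4.39), Serpinb8 (-4.17), Dkkl1 (-4.08), Tnnc1 (-3.90), Myl4 (-3.47) and Hkdc1 (-3.32), and toward HIP Trpa1 (5.45), Dsp (4.53), Glp2r (3.71), Col8a1 (3.55), Tdo2 (3.47) and Mc4r (3.35). Age cannot be told apart from litter or processing here, since no mouse was measured at both ages.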

How the results depend on the processing

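Genes called in WT ranged from 4176 to 5519 higher in HIP and from 4345 to 5349 higher in CX over 14 alternatives, and leaving out each mouse gave 4521 to 4828 and 4469 to 4778. Without the mouse block the counts were 4847 and 4849, and 0 and 4774 for the interactions with genotype and age. With no low-count filter, 1215 genes were at least 2-fold higher in HIP, more genes being tested. Against a 2-fold null (glmTreat), 671 genes were at least 2-fold higher in CX. The genotype interaction gave 1 gene by the likelihood ratio test and 1 by DESeq2, and 0 to 1 when each mouse was left out. The gene was Ptgs2 without P35_26 (-0.73 on the log2 scale) and the gene model Gm2436 without P35_27, with an extreme estimate of -17.7. The cause was not tested. The interaction with age ranged from 4774 to 6207 genes. Of 176 named genes and 2463 alternative values, 2444 kept their side of the threshold and direction, 8 lost and 10 gained a call, and 1 reversed (Aqp1, -0.25 without mice P35_17 and P35_26, a setting chosen after seeing the data). Kcnj13, positive but not called over 5 mice, also changed direction in that setting, to -2.30, and was labelled as gaining a call. In that setting 38 of 497 list and named genes lost their call, in a fit of 3 mice. In the other settings, list counts that moved by more than 1.5 times belonged to the glial, vascular, mural, meningeal, cerebellum, blood and newborn neuron lists, all from counts of 9 genes or fewer: oligodendrocyte genes higher in HIP numbered 5 by DESeq2 and 4 with cerebellum libraries in the fit, and without the block microglial genes numbered 0, mural genes 2 and blood genes higher in CX 1. No p below 0.0625 can come from a sign-flip test over 5 mice, so single-gene tests rest on the spread shared over genes.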

Other observations

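Annotated gene classes were counted beside the shares of all genes tested, 29.2% higher in HIP and 28.6% higher in CX. Of the classes given here, TEC lay furthest from these shares. Of 14629 protein-coding genes tested, 4693 were higher in HIP and 4167 in CX. Long intergenic noncoding RNAs gave 107 and 147 of 499, and antisense genes 79 and 102 of 371. The class TEC, single-exon models that the annotation lists as still to be tested by experiment, gave 41 higher in HIP and 381 higher in CX of 935.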
